A study of Mus musculus with 8 samples.

Results

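Spi1, Cebpa, Cebpb, Cebpd, Maf, Klf2, Klf4, Pparg and Spic encode transcription factors that build or shape the macrophage lineage. These 9 genes were chosen by name, all 9 were among the 16786 genes with a value in 7 libraries, and all 9 passed the filter on low counts. Their levels were compared in tumor-associated macrophages (TAMs), the macrophages found inside a tumor, in 4 samples from wild-type mice (TAM-WT) and 4 from Colec11-/- mice (TAM-KO). Colec11 encodes collectin-11, a soluble pattern recognition lectin, and its deletion was carried by every cell of the host, so that TAMs, other host cells and their surroundings all differed in genotype, while the tumor cells did not. All mice were C57BL/6, the wild-type controls were littermates per the study's methods, which name adult male mice as its default, and all bore B16 melanomas, a mouse melanoma line injected under the skin. TAMs were sorted on day 14 as CD45+F4/80+ cells, CD45 being a marker of leukocytes and F4/80 a surface protein of mouse macrophages, and the labels name no further treatment.

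Spi1 encodes PU.1, an ETS factor that opens myeloid enhancers and is required for macrophages to form, and the C/EBP factors encoded by Cebpa, Cebpb and Cebpd bind many of the same enhancers. Onto this shared base, other factors add programs that differ between tissues and states: Maf in mature resident macrophages, Klf2 and Klf4 in quiescence and alternative activation, Pparg in lipid uptake and storage, and Spic in the iron-recycling macrophages of the spleen. In a tumor, TAMs arise largely from blood monocytes, and several of these factors change in level as a monocyte becomes a macrophage.

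Of the 9 genes, Klf4 and Pparg were lower in TAM-KO than in TAM-WT, with no overlap between the libraries of the groups, and for the other 7 no difference was detected. Klf4 stood at 58.7% of its TAM-WT mean FPKM and Pparg at 70.6%, whereas Spi1 stood at 99.8%. FPKM, a fragment count divided by transcript length and by library size, is the deposited level and is the scale used here to compare one gene with another. Fold changes come from edgeR's quasi-likelihood test on the expected counts with TMM scaling, and a gene was called at a Benjamini-Hochberg adjusted p of at most 0.05 over 12412 genes. By that test 2 of 9 members were called lower and 0 higher, against 5.29% of all genes called lower, 4.63% called higher and 9.92% called in either direction. At an unadjusted p under 0.05 there were again 2 members, both lower, and the other tools run, DESeq2 and limma voom with quality weights, likewise called 0 higher. Neither of the called members reached a fold of 2, a size that 2.54% of all genes reached together with the call. The 9 log2 fold changes had a median of -0.20 and were all below 0 with TMM scaling, where the median over all genes was 0.00, but those of Spi1, Cebpb and Cebpd were not below 0 under other scalings.

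Sequencing depth was even, with 16225362 to 17280267 expected counts on genes in the 7 complete libraries, and the groups lay on opposite sides of the first principal component (59.1% of the variance). The table of TAM-KO replicate 1 lacked a run of genes, so that Cebpa, Cebpb, Cebpd, Maf and Klf2 have 3 TAM-KO libraries, the replicate 1 value of Klf4 comes from the series-wide table, and Spi1, Pparg and Spic were tested on 8. That table lists genes by the size of their change, so its replicate 1 counts, which exist for Klf4, were left out of the test, which used 7 libraries, and entered an alternative fit. Colec11 itself had 0 to 4 counts in TAM-WT and 1 in every TAM-KO library, too few to check the genotype. The summed FPKM of 7 macrophage and leukocyte genes was 3949 to 4818 in TAM-WT and 4013 to 4596 in TAM-KO. Cd68 and C1qa, the most abundant of the 7, made up most of each sum. Of the gate's own genes, Ptprc (CD45) stood at 39.1 to 67.7 in TAM-WT and 59.9 to 88.7 in TAM-KO. Adgre1 (F4/80) stood at 186 to 239 in TAM-WT and at 182 to 200 in TAM-KO replicates 2 to 4. By edgeR 0 of the 7 were called, with 3 at an unadjusted p under 0.05. DESeq2 called 1 higher and 2 lower, and voom 1 higher and 3 lower. Genes of other cells were present too: 5 melanoma genes summed to 1873 to 4235 FPKM in TAM-WT and to 3643 to 4878 in TAM-KO, where the sums here rest on replicates 2 to 4. All 5 had log2 fold changes above 0, with a median of 0.59. By edgeR 0 of the 5 were called, with 4 at an unadjusted p under 0.05, while DESeq2 called 3 higher and voom 5. Replicate 1 has a value for every gene of the melanoma list, summing to 4307, and of the neutrophil list, summing to 214 against 47.2 to 74.2 in TAM-WT and 60.1 to 73.2 in the other TAM-KO libraries. The sum of 5 monocyte genes was 69.2 to 166 in TAM-WT and 230 to 360 in TAM-KO, with 3 of the 5 called higher. Among these, Ly6c2, whose reads can be shared with its paralog Ly6c1, was higher by 1.79 and Plac8 by 1.41 on the log2 scale. The sum of 9 T and NK cell genes was 2.22 to 25.6 in TAM-WT and 28.1 to 85.5 in TAM-KO. By edgeR 1 of the 7 tested, Nkg7, was called higher (log2 fold change 3.38, and 6.41 without TAM-WT replicate 1). Of the 7, 6 were above 0 and 6 had an unadjusted edgeR p under 0.05, with a list median of 3.0. DESeq2 called 2 of them higher and voom 6. The neutrophil gene S100a8 (2.68, adjusted p = 0.0481, and 1.52 without TAM-KO replicate 1) and the dendritic cell gene Xcr1 (1.78, adjusted p = 0.0435) were called higher too, although the dendritic cell sums overlapped. Xcr1 was low, at mean FPKM of 0.18 in TAM-WT and 0.66 in TAM-KO. Of 5 tested neutrophil genes, 1 had a log2 fold change below 0 and 4 above, with a median of 0.69. Of 6 dendritic cell genes, 2 were below 0 and 4 above, with a median of 0.02. An unadjusted edgeR p under 0.05 was found for 4 of these neutrophil genes and 2 of the dendritic cell genes. DESeq2 called 3 neutrophil genes higher and 1 lower, and 1 dendritic cell gene in each direction. With each library left out in turn, Ly6c2 was called in 2 of 8 fits, S100a8 in 1, Xcr1 and Nkg7 in 3 each and Plac8 in 8. The part of these other cells in the differences below was not tested, and in bulk samples fewer cells of a type and less RNA per cell cannot be told apart.

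**Figure D1:**
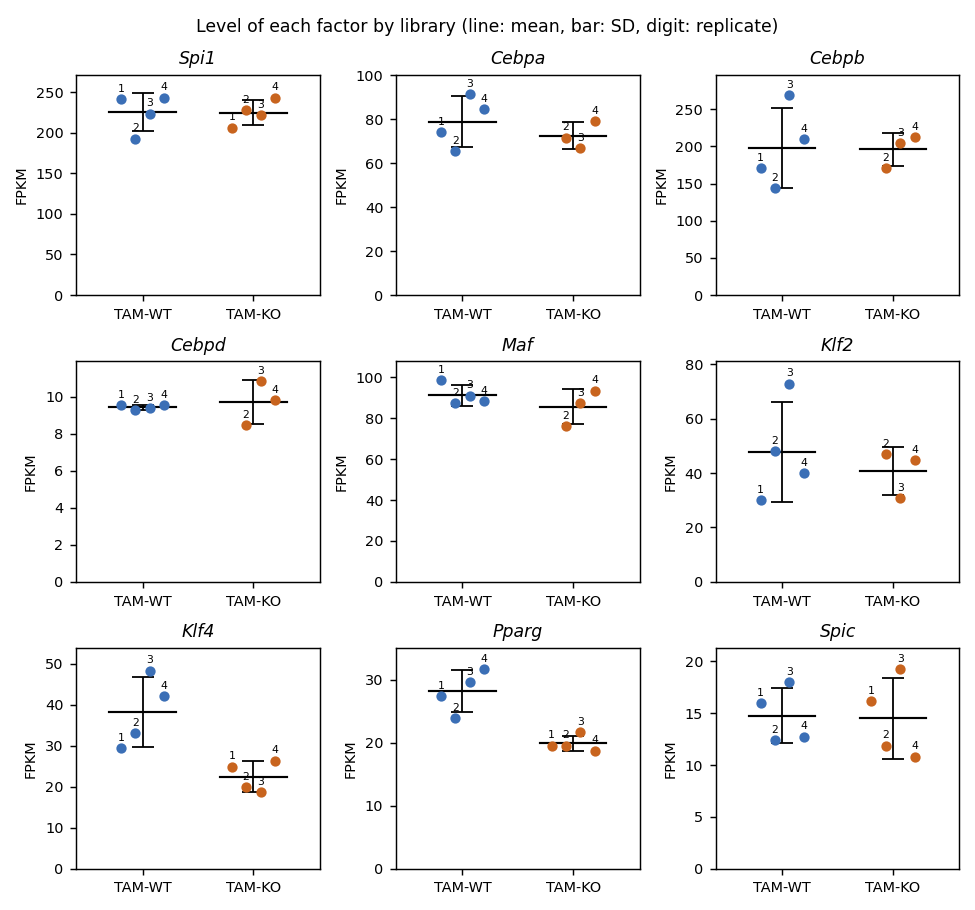
FPKM (vertical axes, from 0) of the 9 lineage factors in each TAM-WT library (blue) and TAM-KO library (orange); digits are replicate numbers, lines the group means and bars the SD, with 3 TAM-KO points where replicate 1 has no value. The points of Klf4 (TAM-WT 29.5 to 48.3, TAM-KO 18.7 to 26.4) and Pparg (TAM-WT 24.0 to 31.8, TAM-KO 18.8 to 21.7) do not overlap, and those of the other 7 genes do.

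Klf4, a zinc finger factor that promotes monocyte differentiation and alternative activation, lies on the minus strand at chr4:55527137-55532475 of GRCm38.p6. In replicate order, its FPKM was 29.5, 33.0, 48.3 and 42.2 in TAM-WT, beside 24.9, 19.9, 18.7 and 26.4 in TAM-KO. Every TAM-KO library lay below every TAM-WT library, and the nearest pair, TAM-WT replicate 1 and TAM-KO replicate 4, differed by less than the SD within TAM-WT. The mean was 38.2 ± 8.58 (SD, n = 4) in TAM-WT and 22.5 ± 3.75 (SD, n = 4) in TAM-KO. The log2 fold change was -0.93 (SE 0.23, 95% confidence interval -1.46 to -0.41, edgeR adjusted p = 0.0433), and with TAM-KO replicate 1 filled in from the series-wide table it was -0.89 (adjusted p = 0.035). The call was lost without TAM-WT replicate 3 (adjusted p = 0.0998) or 4 (0.0926), or TAM-KO replicate 2 (0.153) or 3 (0.144). The log2 fold change stayed between -1.13 and -0.76 throughout. With TAM-KO replicate 1 left out of the whole fit, the edgeR adjusted p was 0.0543. The test of Klf4 already lacked that library, so its log2 fold change was again -0.93 and only the adjustment over all genes differed.

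Klf2, the paralog of Klf4 that keeps leukocytes quiescent and restrains inflammatory genes, lies on the plus strand at chr8:72319062-72321654. It had the widest spread of the 9 genes in TAM-WT, with a coefficient of variation of 38.4% and a 2.43-fold range. Its FPKM was 29.9, 48.2, 72.8 and 39.9 in TAM-WT beside 47.0, 30.7 and 44.8 in the TAM-KO libraries with a value, replicates 2 to 4. TAM-WT replicate 3 alone stood high, and all 3 TAM-KO libraries fell inside the range of the others. The log2 fold change was -0.34 (95% confidence interval -1.06 to 0.37, adjusted p = 0.495), an interval that holds the point estimate of Klf4, and the difference between the paralogs' changes was not tested. The FPKM of Klf4 over that of Klf2 within a library, a ratio taken up after the values were seen, was 0.848 ± 0.202 (SD, n = 4) in TAM-WT and 0.54 ± 0.102 (SD, n = 3) in TAM-KO, with ranges of 0.663 to 1.06 and 0.423 to 0.608.

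The promoters of the KLF pair are shown because both factors bind GC-rich boxes and both promoters hold such letters. Each sequence is the 250 bases before a RefSeq start on GRCm38.p6, at chr4:55532476-55532725 on the minus strand for Klf4 and at chr8:72318812-72319061 on the plus strand for Klf2, read 5′ to 3′ in the gene's own direction. Capitals mark CCCCGCCC or its reverse complement GGGCGGGG, letters held by 16.1% of the 32851 RefSeq promoter windows of that length.
Klf4: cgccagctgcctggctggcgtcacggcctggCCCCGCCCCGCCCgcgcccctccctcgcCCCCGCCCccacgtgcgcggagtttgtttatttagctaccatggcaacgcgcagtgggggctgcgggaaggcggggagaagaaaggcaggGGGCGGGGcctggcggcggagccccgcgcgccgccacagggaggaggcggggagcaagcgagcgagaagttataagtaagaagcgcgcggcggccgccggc
Klf2: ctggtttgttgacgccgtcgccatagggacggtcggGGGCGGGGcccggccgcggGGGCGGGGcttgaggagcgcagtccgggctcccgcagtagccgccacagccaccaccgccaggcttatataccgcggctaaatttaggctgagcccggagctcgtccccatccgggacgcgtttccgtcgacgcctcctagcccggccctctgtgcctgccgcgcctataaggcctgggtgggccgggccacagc
Klf4 held 4 matches, of which the 2 farthest from the start, at 219 and 214 bases before it, overlap, and Klf2 held 2, at 214 and 195 bases. These windows are 74.0% and 71.2% G and C, against a median of 52.4% over all windows. The same search in the 8 windows found for 6 of the 9 members (Cebpa, Cebpb, Klf2, Klf4, Spic and 3 starts of Pparg) gave 3 with these letters. A match is a description of the letters and shows neither binding nor a cause of a change in level.

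Pparg encodes the fatty acid receptor PPARγ, which drives genes of lipid uptake and storage and is the defining factor of alveolar macrophages. The gene lies on the plus strand at chr6:115360879-115490404. Its FPKM was 27.4, 24.0, 29.7 and 31.8 in TAM-WT and 19.6, 19.6, 21.7 and 18.8 in TAM-KO. All 4 TAM-KO libraries lay below the lowest TAM-WT library, replicate 2, and the TAM-KO libraries were close to each other. The mean was 28.2 ± 3.35 (SD, n = 4) in TAM-WT and 19.9 ± 1.24 (SD, n = 4) in TAM-KO. The fitted log2 fold change was -0.60 (SE 0.11, 95% confidence interval -0.85 to -0.35, edgeR adjusted p = 0.0201). Non-overlapping FPKM with TAM-KO lower, as for Pparg and Klf4, was found in 5.41% of all genes, and non-overlap in either direction in 18.9%. The call of Pparg was lost without TAM-WT replicate 3 (adjusted p = 0.0609), or TAM-KO replicate 2 (0.0804) or 3 (0.0588), while its log2 fold change stayed between -0.70 and -0.53.

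Pparg has several starts in RefSeq, and 2 of its 3 windows are shown because they differ in the letters they hold. The first of them, chr6:115362099-115362348, is 63.6% G and C and has the GC box CCCCGCCC in capitals, 212 bases before the start. The other, chr6:115421816-115422065, is 40.8% G and C and has in capitals 2 matches to the C/EBP letters TTGCNNAA on either strand, at 215 and 16 bases before the start.
Pparg upstream start: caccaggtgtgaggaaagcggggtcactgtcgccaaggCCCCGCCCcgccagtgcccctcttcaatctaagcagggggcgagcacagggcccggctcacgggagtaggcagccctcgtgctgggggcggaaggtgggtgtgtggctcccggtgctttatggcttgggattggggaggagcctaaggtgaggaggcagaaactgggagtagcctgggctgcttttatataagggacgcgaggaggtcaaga
Pparg downstream start: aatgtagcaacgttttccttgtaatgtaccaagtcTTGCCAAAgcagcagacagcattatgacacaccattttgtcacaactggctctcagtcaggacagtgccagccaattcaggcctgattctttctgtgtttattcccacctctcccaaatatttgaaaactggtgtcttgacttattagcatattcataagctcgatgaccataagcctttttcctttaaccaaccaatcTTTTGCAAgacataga
The C/EBP letters were found in 9.56% of all windows and in 1 of the 8 member windows, this last one. The tables give 1 value per gene, so the levels from the separate starts cannot be told apart. The letters GAGGAAGT of PU.1 (2.44% of all windows) and the PPAR element, AGGTCA followed after 1 base by AGGTCA (0.0335%), were in 0 of the 8 windows, and TGCTGA, the core of the MAF element (16.1%), was in 1, that of Spic. These searches cover both strands and say nothing about windows farther from the start.

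**Figure D2:**
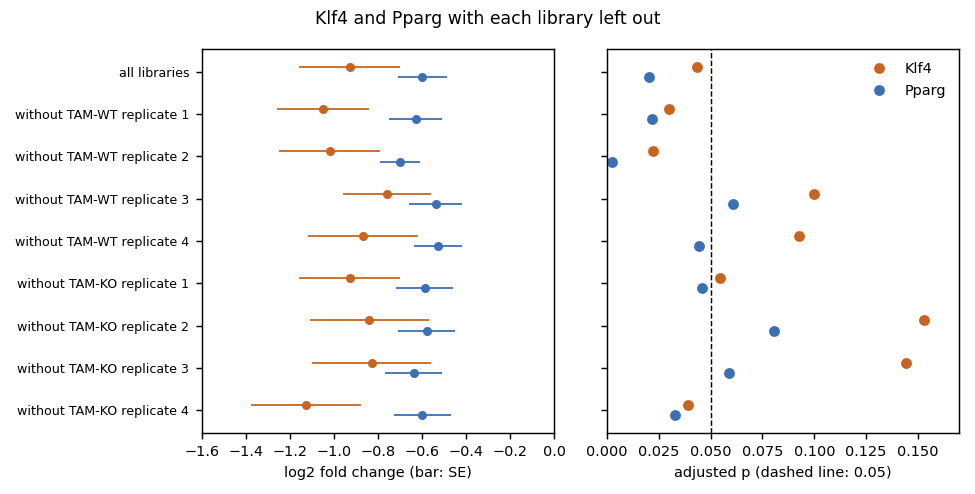
Log2 fold change of TAM-KO against TAM-WT with its SE (left) and edgeR adjusted p (right, dashed line at 0.05) of Klf4 (orange) and Pparg (blue), with all libraries and with each library left out in turn. The fold changes stay below 0, Klf4 between -1.13 and -0.76 and Pparg between -0.70 and -0.53, while 3 of 8 fits call Klf4 and 5 of 8 call Pparg. The test of Klf4 lacks TAM-KO replicate 1 in every fit, so leaving that library out changes only its adjusted p.

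Spi1, which lies on the plus strand at chr2:91082374-91115759, was the most abundant member. Its FPKM was 242, 193, 224 and 243 in TAM-WT and 206, 228, 222 and 243 in TAM-KO, and the TAM-KO libraries lay within the TAM-WT range. The mean was 225 ± 23.5 (SD, n = 4) against 225 ± 15.3 (SD, n = 4), with a log2 fold change of -0.11 (95% confidence interval -0.34 to 0.12, adjusted p = 0.516) on the TMM scale and of 0.00 on the FPKM scale. With Spi1 as a common denominator, the FPKM of Pparg was 0.125 ± 0.00873 (SD, n = 4) of that of Spi1 in TAM-WT and 0.0888 ± 0.00925 (SD, n = 4) in TAM-KO, with ranges of 0.113 to 0.133 and 0.0771 to 0.0975. Both ratios were taken up after the values were seen and carry no test.

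The 3 C/EBP members were found at very different levels, and for none was a difference detected. Cebpb, which drives inflammatory and emergency programs, stood at 171, 144, 268 and 209 FPKM in TAM-WT beside 171, 205 and 212 in TAM-KO, replicate 1 having no value. Cebpa, which commits progenitors to the myeloid lineage, stood at 74.0, 65.4, 91.6 and 84.7 in TAM-WT and at 71.6, 67.0 and 79.1 in TAM-KO. In both genes TAM-WT replicate 3 was highest and TAM-WT replicate 2 lowest of the 7 libraries, and the TAM-KO libraries lay between them. Cebpd, an acute-phase member of the family, was the least abundant of the 9 genes at 9.54, 9.26, 9.37 and 9.56 in TAM-WT and 8.49, 10.9 and 9.81 in TAM-KO. Its TAM-WT libraries hardly differed, and the TAM-KO libraries lay on both sides of them. The log2 fold changes were -0.13 (95% confidence interval -0.67 to 0.41, adjusted p = 0.743) for Cebpb, -0.23 (-0.59 to 0.12, adjusted p = 0.347) for Cebpa and -0.06 (-0.31 to 0.18, adjusted p = 0.722) for Cebpd. Exons of each overlap a gene on the opposite strand, Tmem189 for Cebpb, Gm45091 for Cebpa and Spidr for Cebpd, and the counting is not stated to use strand, so reads of the partners cannot be told apart.

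Maf, which restrains self-renewal in differentiated macrophages, had FPKM of 98.6, 87.3, 91.0 and 88.2 in TAM-WT and of 76.2, 87.4 and 93.4 in TAM-KO. TAM-KO replicate 2 lay below all TAM-WT libraries and the other two within their range. The mean was 91.3 ± 5.15 (SD, n = 4) against 85.7 ± 8.77 (SD, n = 3), with a log2 fold change of -0.20 (95% confidence interval -0.43 to 0.04, edgeR adjusted p = 0.238). Of the tools run, limma voom with quality weights alone called it, at -0.29 (adjusted p = 0.0455). The deposited tables list Maf (chr8:115703253-115706894) on the plus strand and GENCODE on the minus strand, where the plus strand holds the overlapping gene Gm15655.

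Spic, the PU.1-related factor of splenic red pulp macrophages, was detected in every library of these tumor macrophages. Its FPKM was 16.0, 12.4, 18.0 and 12.7 in TAM-WT and 16.2, 11.9, 19.3 and 10.8 in TAM-KO. Libraries near the lower and upper ends occurred in both groups, and TAM-KO held both the lowest and the highest value. The mean was 14.8 ± 2.69 (SD, n = 4) against 14.5 ± 3.91 (SD, n = 4), a log2 fold change of -0.13 (95% confidence interval -0.58 to 0.31, adjusted p = 0.686).

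Ordered by mean FPKM, the levels ran Spi1, Cebpb, Maf, Cebpa, Klf2, Klf4, Pparg, Spic and Cebpd, and this order was the same in both groups. Among neighbors in TAM-WT, ranges did not overlap between Cebpb and Maf, between Pparg and Spic and between Spic and Cebpd, and the other neighbors overlapped. Within a library, Klf4 was above Pparg and Cebpa above Klf2 in 4 of 4 TAM-WT libraries despite their overlapping ranges, whereas Spi1 was above Cebpb, Maf above Cebpa and Klf2 above Klf4 in 3 of 4.

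By Pearson correlation of log2 CPM over 7 libraries, the genes whose pattern was most like that of Klf4 were Ankrd33b (r = 0.996), Eepd1 (0.994) and Rhob (0.993), and those most like Pparg were Ptbp3 (0.997), Ppp3r1 (0.995) and Appl1 (0.992). For Spi1 they were Mcf2l, Dop1b and Myo1g, the first at r = 0.992, and for Spic they were Srp72, Dnajc2 and Amn1, the first at 0.944. Cebpa was most like Lrpap1 (0.99), Cebpb like Golga5 (0.98), Cebpd like Noc2l (0.982), Maf like Nol4l (0.993) and Klf2 like Trp53inp2 (0.963). These values describe the ranking of many genes over few libraries that share the split between the groups and carry no test.

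Among 47 further transcription factors, 41 were tested and 2 were called, Klf6 and Egr2, both lower in TAM-KO, beside 5.29% of all genes called lower and 9.92% in either direction. By edgeR the share of these factors called is thus no higher than that of all genes. The other tools differed: DESeq2 called 13 of the 41, beside 2253 of all 12412 genes, and voom called 17, beside 3625. Both are larger shares than over all genes. Klf6, an abundant KLF relative in myeloid cells, had FPKM of 183, 310, 396 and 321 in TAM-WT and 222, 122, 146 and 178 in TAM-KO, so TAM-WT replicate 1 lay inside the TAM-KO range. Its log2 fold change was -0.98 (SE 0.26, edgeR adjusted p = 0.0452), close in size to that of Klf4, and the call was lost with any library except TAM-WT replicate 1 or 2 left out (adjusted p of up to 0.139), and it was lost as well with TAM-KO replicate 1 filled in (0.0532). Egr2, an early growth response factor of alternatively activated macrophages, had FPKM of 25.5, 41.0, 63.5 and 45.6 in TAM-WT and 28.0, 13.3, 14.5 and 16.2 in TAM-KO. TAM-KO replicate 1 was the one library of its group inside the TAM-WT range, and its count, which only the series-wide table gives, was not in the test. The log2 fold change was -1.73 (SE 0.31, adjusted p = 0.022) on the other 7 libraries and -1.43 (SE 0.33, adjusted p = 0.0364) with that count filled in. The call was lost without TAM-KO replicate 2 (adjusted p = 0.0931) or 3 (0.0874).

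None of the other relatives passed the edgeR test. Rxra, the partner with which PPARγ binds DNA, was at 31.7 ± 1.33 (SD, n = 4) and 27.6 ± 2.46 (SD, n = 4), a log2 fold change of -0.30 (adjusted p = 0.0639), and Nr1h2, an oxysterol receptor, stood at 0.02 (0.887). Among ETS relatives 0 of 9 tested were called by edgeR (3 at an unadjusted p under 0.05, 2 lower by DESeq2, 1 higher and 2 lower by voom), with Ets2 at -0.88 (adjusted p = 0.0625) and Ets1 at 0.31 (0.216). Among C/EBP relatives 0 of 3 were called (1 at an unadjusted p under 0.05, 0 by DESeq2 and by voom), with Ddit3 at -0.31 (0.16) and Cebpg at -0.14 (0.332). Among MAF relatives 0 of 4 were called (2 unadjusted, 1 lower by DESeq2, 2 lower by voom), with Mafg at -0.32 (0.0906), and among partners of Pparg 0 of 5 (3 unadjusted, 1 higher and 1 lower by DESeq2 and by voom). Klf10, a further KLF relative, stood at -0.24 (0.198). Of 14 other myeloid factors tested 1 was called, Egr2, with Id2, an inhibitor of helix-loop-helix factors, at -0.85 (0.0565) and Bhlhe40 at -0.34 (0.177).

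**Figure D3:**
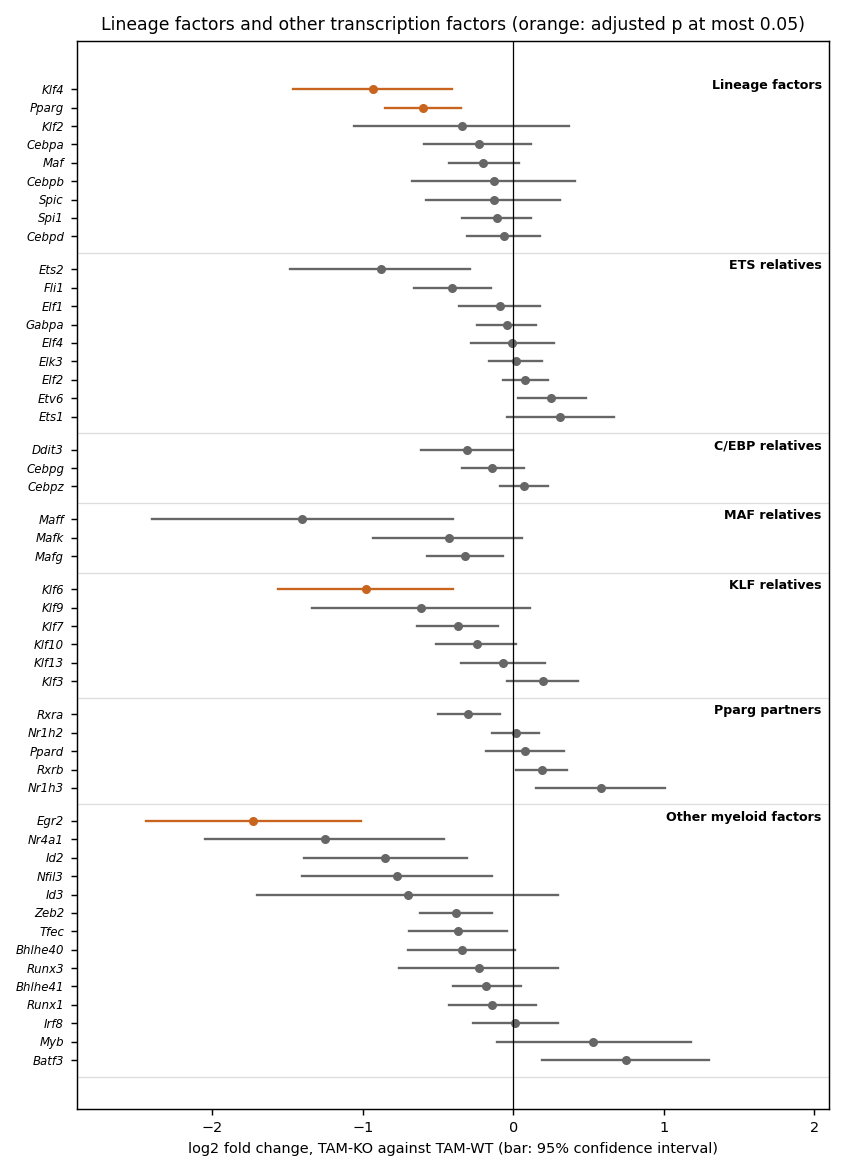
Log2 fold change of TAM-KO against TAM-WT (horizontal axis) with its 95% confidence interval for the 9 lineage factors and other transcription factors, grouped by family; orange marks an edgeR adjusted p of at most 0.05. The 4 called genes, Klf4, Pparg, Klf6 and Egr2, all lie below 0, at -0.93, -0.60, -0.98 and -1.73.

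Genes that textbooks place under these factors were counted in 6 lists, which share members such as Mrc1 and Cd163. Over the lists, 49 genes were tested, 7 were called lower and 2 higher, beside 5.29% and 4.63% of all genes, and the median log2 fold change was -0.31 against 0.00 over all genes. The count lower was 12 by DESeq2 and 22 by voom, each with 4 higher. Whether a change in a factor led to a change in its listed genes was not tested.

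In the list of Pparg, 2 of 9 tested genes were called, both lower, with a list median of -0.35. Fabp4, a fatty acid carrier and classic PPARγ target, had FPKM of 158, 172, 255 and 242 in TAM-WT and 86.5, 50.4, 62.6 and 91.8 in TAM-KO. All TAM-KO libraries lay below all TAM-WT libraries, and the log2 fold change was -1.66 (SE 0.28, edgeR adjusted p = 0.0194). Fabp5, the related carrier, whose reads can be shared with near-identical pseudogenes, went from 1215 ± 191 (SD, n = 4) to 740 ± 150 (SD, n = 4), again without overlap, a log2 fold change of -0.88 (SE 0.21, adjusted p = 0.0426). Both were tested without TAM-KO replicate 1. With its counts filled in, Fabp4 stood at -1.58 (edgeR adjusted p = 0.0165) and Fabp5 at -0.82 (0.037). Fabp4 was not called without TAM-WT replicate 3 (adjusted p = 0.0522), or TAM-KO replicate 2 (0.0804) or 3 (0.0836), and Fabp5 was lost without these or TAM-WT replicate 4 (up to 0.144). With TAM-KO replicate 1 left out of the whole fit, Fabp5 was lost too (0.0529), through the adjustment over all genes alone. Plin2, the coat protein of lipid droplets, was at 508 ± 97.8 (SD, n = 4) and 352 ± 101 (SD, n = 3), at -0.64 (adjusted p = 0.125).

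In the list of Klf2 and Klf4, 2 of 8 tested genes were called lower, Retnla and Mrc1, and 1 higher, with a median of -0.76. Retnla, a secreted product of alternative activation, went from 4.20 ± 1.6 to 1.69 ± 0.537 FPKM (SD, n = 4 each), at -1.40 on the log2 scale (edgeR adjusted p = 0.0452), and it was called without TAM-WT replicate 2 or TAM-WT replicate 4 but not without any other library (up to 0.133). Its counts were low, at 11 to 28 in TAM-WT and 6 to 11 in TAM-KO, and the FPKM of the groups overlapped. Cdkn1a, a cell cycle inhibitor, was at 184 ± 27.5 (SD, n = 4) and 187 ± 23.7 (SD, n = 3; adjusted p = 0.759).

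In the list of Maf, 3 of 8 tested genes were called lower, and the complement genes were not called. Mrc1, the mannose receptor CD206, which also stands in the KLF list, had FPKM of 453, 431, 464 and 460 in TAM-WT and 270, 162, 212 and 289 in TAM-KO. The TAM-WT libraries were nearly level and all above TAM-KO, with a log2 fold change of -1.13 (SE 0.20, edgeR adjusted p = 0.0219) on 7 libraries. With TAM-KO replicate 1 filled in, it was -1.06 (0.0221). Lyve1, a hyaluronan receptor of resident perivascular macrophages, went from 11.4 ± 2.79 to 1.37 ± 1.33 FPKM (SD, n = 4 each). Its log2 fold change was -3.63 (SE 0.69, edgeR adjusted p = 0.0241) on 7 libraries, -3.14 with TAM-KO replicate 1 filled in and -5.82 without TAM-KO replicate 4. That last fit, on 6 libraries, had TAM-KO replicates 2 and 3 alone, at 11 and 6 counts. TAM-KO replicates 1 and 4 held 105 and 99 counts. Mrc1 and Lyve1 lost their call without TAM-WT replicate 3 (Mrc1 0.0659, Lyve1 0.0698), or TAM-KO replicate 2 (0.0719 and 0.0924) or 3 (0.0885 and 0.079). Cd163, the hemoglobin scavenger receptor, had FPKM of 6.63, 8.88, 6.59 and 5.29 in TAM-WT and 2.31, 0.92, 0.96 and 2.18 in TAM-KO, at -2.24 (SE 0.30, adjusted p = 0.00933), and it was called with any 1 library left out. C1qa and C1qc, subunits of complement C1q, stood at 0.13 (0.447) and 0.09 (0.58).

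In the list of Spic, 2 of 8 tested genes were called lower and 1 higher. Besides Cd163, Blvra, which encodes a biliverdin reductase, went from 86.4 ± 4.72 (SD, n = 4) to 67.7 ± 2.99 FPKM (SD, n = 3), at -0.46 (SE 0.07, edgeR adjusted p = 0.0139), a call lost without TAM-KO replicate 2 (0.0731) or 3 (0.0588). Treml4, a receptor of splenic macrophages, went from 7.25 ± 1.47 to 12.5 ± 1.95 (SD, n = 4 each), at 0.68 (adjusted p = 0.0433), and it was lost without TAM-WT replicates 1 or 4 or TAM-KO replicates 2, 3 or 4 (up to 0.127). Hmox1, which degrades heme, was among the most abundant listed genes at 5101 ± 1086 (SD, n = 4) and 3923 ± 972 (SD, n = 3), at -0.48 (0.216), and Blvrb was at 203 ± 6.05 and 201 ± 15.2 (SD, n = 4 each; 0.41).

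The lists of Spi1 and of the C/EBP factors held no called gene. For Spi1, 0 of 14 tested genes were called by edgeR, with 5 at an unadjusted p under 0.05, 1 higher and 2 lower by DESeq2, 1 higher and 6 lower by voom, and a median of -0.20. Its most abundant genes were Lyz2, lysozyme, whose reads can be shared with Lyz1, at -0.70 (adjusted p = 0.0548), and Fcer1g, the signaling chain of Fc receptors, at -0.13 (0.453). For the C/EBP factors, 0 of 7 tested genes were called, with 4 at an unadjusted p under 0.05, 1 higher and 1 lower by DESeq2, 1 higher and 2 lower by voom, and a median of -1.01. That list split, with 4 log2 fold changes below 0 and 3 above, so its median is the value of Arg1 and does not describe the list as a whole. Arg1, the arginase of suppressive myeloid cells, was at 199 ± 119 and 129 ± 48.0 FPKM (SD, n = 4 each; 0.168), with Il1b, the inflammatory cytokine, at 102 ± 44.9 and 63.7 ± 23.5 (SD, n = 4 each; 0.0829). Both tests lacked TAM-KO replicate 1, and their log2 fold changes were -1.01 and -1.08. With that library filled in they were -0.76 (edgeR adjusted p = 0.257) and -0.81 (0.159). With TAM-KO replicate 1 filled in, Csf3r, a neutrophil receptor that stands in both lists, was called higher at 0.61 (adjusted p = 0.0487).

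**Figure D4:**
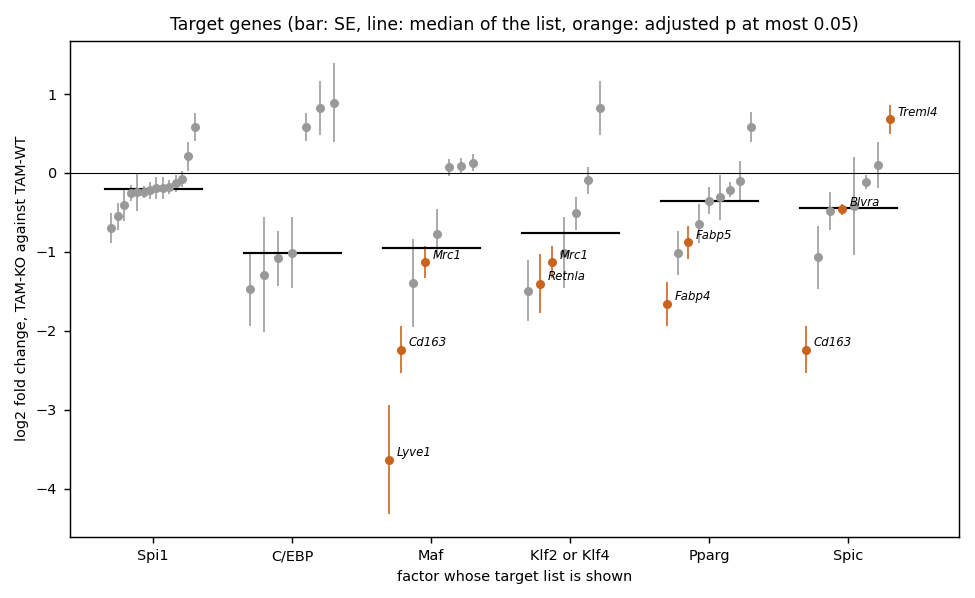
Log2 fold change of TAM-KO against TAM-WT (vertical axis, bars are SE) for genes placed under each factor, with the list median as a black line and genes at an edgeR adjusted p of at most 0.05 in orange and named, the medians being over all tested genes of a list. The Pparg list holds Fabp4 (-1.66) and Fabp5 (-0.88), the Maf list Lyve1, Cd163 and Mrc1, and the Spi1 and C/EBP lists hold 0 called genes, with medians of -0.20 and -1.01. The C/EBP list splits into 4 genes below 0 and 3 above.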

How the data were processed

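RNA of sorted TAMs (4 TAM-WT and 4 TAM-KO samples) was sequenced on BGISEQ-500. Per the submitters' processing notes, HISAT2 2.0.4, Bowtie2 2.2.5 and RSEM 1.2.12 were run on GRCm38.p6. The authors deposited, for each library, RSEM expected counts and FPKM per gene, and a series-wide table of expected counts, FPKM and TPM for 3996 genes, of which the counts and FPKM of TAM-KO replicate 1 were used. That table also holds the authors' fold changes, p-values and q-values, which were not used. The table of TAM-KO replicate 1 lacks a usable value for 4214 of 16786 genes, a mixed line (1) and 629 shifted values being left out. Of these, 1188 had values in the series-wide table, whose counts equaled those of the library table for 2808 of 2808 genes in both. That table holds genes with an absolute log2 ratio of mean FPKM of at least 0.49, so filled values are a selected set. They entered only an alternative fit and the FPKM values, with their means, SDs and ranges.

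Expected counts were rounded and tested with edgeR 4.0.16 (TMM, quasi-likelihood, R 4.3.3): 9396 genes on 8 libraries and 3016 without TAM-KO replicate 1, adjusted together. Reads on genes numbered 16225362 to 17280267 per complete library. Samples were grouped by the genotype in their titles. Replicates are separate labeled samples, counted as mice by the study. FPKM ranges were compared without a test. Alternatives were total-read and DESeq2 size-factor scaling, DESeq2 1.42.0, limma 3.58.1 (voom with quality weights, and log2 of FPKM plus 1 or 0.1), other filters, the replicate block, filled values and leaving out each library. On simulated counts for 9356 genes (4 against 4), 100% of genes changed 2-fold and 82% changed 1.5-fold were called, with 3 of 9156 unchanged genes. The simulated spread followed a trend with level and left out the spread particular to each gene, and the changed genes had a CPM of at least 5. These shares therefore do not carry over to genes of wider spread or to those tested without TAM-KO replicate 1. Named genes were the 9 members, up to 3 called genes per list by size of change, the 2 most abundant per list, and the 3 most correlated with each member (mean CPM of at least 5). Genes in these lists that are not reported here are counted and not named or drawn. The members and lists were chosen with earlier results of these data known. Promoter windows came from RefSeq. Strand in the tables matched GENCODE for 87.6% of 20482 genes.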

Additional observations from a re-analysis of the deposited data

Results flagged for a closer look

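Of 98 groups of 4 values examined among the listed genes, 5 held a library whose gap to the nearest other as a share of the group's range passed Dixon's 95% critical value, and chance gives about 4.9 (1 in 20). No lineage factor was among them. Rxra, the binding partner of PPARγ, stood at 31.27 FPKM in TAM-KO replicate 4, above the other TAM-KO libraries and within the TAM-WT range. Ddit3 stood at 94.85 FPKM in TAM-WT replicate 2, the highest of its group. S100a8, a neutrophil gene, stood at 73.46 FPKM in TAM-KO replicate 1, and 2 cytotoxic lymphocyte genes stood apart in TAM-WT replicate 1, Nkg7 at 5.82 and Gzmb at 6.55 FPKM.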

How the results depend on the processing

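Klf4 and Pparg were called in all 10 other analysis settings (Klf4 adjusted p 0.00182 to 0.0448, Pparg 0.000185 to 0.0257), while leaving out libraries moved the number of members called between 0 and 2. A fold of at least 2 left 0 members called, as did an adjusted p of at most 0.01. The number of other transcription factors called, 2 as reported, was 5 with total reads, 13 with DESeq2, 17 with voom, 4 with limma on FPKM plus 1 and 4 plus 0.1, 7 with the replicate block, 1 with TAM-KO replicate 1 filled, 1 at a fold of at least 2, 0 at an adjusted p of at most 0.01, and 0 to 10 with a library left out. The number of target genes called, 9 as reported, was 16 with DESeq2, 26 with voom, 1 at an adjusted p of at most 0.01 and 1 to 20 with a library left out. Over all genes, 1231 were called with all libraries, 2253 by DESeq2 and 3625 by voom, 77 when TAM-KO replicate 2 or 3 was left out, 682 for TAM-KO replicate 1, 151 for TAM-WT replicate 3, 416 for TAM-WT replicate 4 and 2755 for TAM-WT replicate 2. The sign turned for Spi1 (0.00 with limma on FPKM plus 1 and plus 0.1), Cebpb (0.02 with both, -0.27 to 0.09 with a library left out, the latter without TAM-WT replicate 3), Cebpd (0.05 with total reads, 0.03 and 0.04 with limma on FPKM plus 1 and plus 0.1, -0.14 to 0.06 with a library left out, the latter for TAM-KO replicate 2) and Spic (-0.29 to 0.01, the latter for TAM-WT replicate 3), none called in any setting. The cause was not tested. Same-numbered libraries did not deviate together (r = -0.428, 0.041, -0.29 and 0.303), nor did every library correlate best with its own number, and the labels tie the numbers to nothing shared. The replicate block left 2 members called and all genes called at 1080. Cebpa, Cebpb, Cebpd, Maf and Klf2 rest on 3 TAM-KO libraries, and their intervals hold changes in both directions.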
